A study of Mus musculus with 18 samples.

Results

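The 8 genes described here serve nitric oxide, itaconate, arginine, polyamine and tryptophan metabolism. *Nos2*, *Slc7a2*, *Ass1*, *Asl* and *Gch1* act in nitric oxide synthesis, *Acod1* makes itaconate, *Odc1* opens polyamine synthesis and *Ido1* opens tryptophan breakdown. They belong to 10 genes chosen by symbol, each of which was found once among the 62197 genes of the deposited table of normalized counts, of which 37020 carry no symbol. Bulk RNA-seq libraries were made from mouse dendritic cells (DCs) that had been grown from bone marrow for 10 days in medium with granulocyte-macrophage colony stimulating factor. The study examined how squeezing changes the transcriptome of DCs that have or lack the lipid enzyme cPLA_2_, encoded by *Pla2g4a*, and used lipopolysaccharide (LPS) as a microbial stimulus. There were 6 groups of 3 libraries, 18 in all. Nonconfined cPLA_2_ WT and nonconfined cPLA_2_ KO DCs received no treatment. Confined cPLA_2_ WT and confined cPLA_2_ KO DCs were held at a height of 3 µm, and the labels give 4 h as the time of collection. LPS-treated nonconfined DCs, also labelled cPLA_2_ WT or cPLA_2_ KO, received 100 ng ml-1 LPS, were washed after 30 min according to the labels (25 min in the Methods) and were collected the next day. The protocol text of all 18 libraries mentions LPS, while titles and treatment entries name it for these 6 alone, and the groups follow the latter. cPLA_2_ KO mice carried conditional *Pla2g4a* alleles and Cre under the *Itgax* promoter, which is active in CD11c-expressing cells, so the deletion depends on that promoter. The Methods give an age of 6 to 8 weeks for mice whose bone marrow was cultured. Whether the cPLA_2_ WT mice carried Cre, and the sex of the donors of each library, are not given in the sources used here.

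Inducible nitric oxide synthase, the product of *Nos2*, oxidizes arginine to citrulline and nitric oxide, a reaction that needs tetrahydrobiopterin and is a known antimicrobial output of activated macrophages and inflammatory DCs. Arginine is imported by cationic amino acid transporters and rebuilt from citrulline, and polyamines are made from ornithine. Itaconate, which *Acod1* makes from a TCA cycle intermediate, inhibits succinate dehydrogenase and activates the antioxidant factor NRF2, and *Ido1* starves neighbouring T cells of tryptophan and yields kynurenine.

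The deposited values are gene counts divided by a size factor for each library, without scaling for gene length, so levels of 1 gene can be compared between libraries but levels of different genes cannot. Between 33027230 and 61300021 reads fell on genes per library, with a median of 40950398. By group, the median was 39851237 for nonconfined and 42049558 for confined cPLA_2_ WT libraries, 37116045 and 33672070 for their cPLA_2_ KO counterparts, and 52482280 and 43169041 for the LPS libraries under the cPLA_2_ WT and cPLA_2_ KO labels. Groups were compared with limma on log2(normalized count + 1), a scale on which fold changes of weakly expressed genes are understated. A gene was called higher or lower when its adjusted p was under 0.05 and its log2 fold change exceeded 1 in size. The adjustment ran over 17875 genes, those with 10 or more normalized counts in 3 or more libraries. All 8 genes passed this filter, and each was above 10 normalized counts in all 18 libraries. The study calls the libraries of a group biological replicates, and neither it nor the labels say whether these are separate cultures or animals, so the p-values measure only the spread between these libraries. In each of the 6 groups, replicates 1 and 2 differed most and replicate 3 was nearer to both. In LPS libraries labelled cPLA_2_ WT, replicates 1 and 2 had a mean squared difference of 56.6 times the counting variance. Replicate 3 stood at 15.2 and 19.8 from them. Whether replicate 3 is independent of replicates 1 and 2 was not tested, and the SDs and p-values take it as independent.

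*Pla2g4a*, the targeted gene, stood at 697, 686 and 770.4 normalized counts in nonconfined cPLA_2_ WT and at 548, 542 and 533 in nonconfined cPLA_2_ KO libraries. In confined cells it reached 1369, 1430 and 1321 normalized counts in cPLA_2_ WT and 923, 871 and 919.5 in cPLA_2_ KO libraries. In both pairs every cPLA_2_ KO library was below every cPLA_2_ WT library, with log2 fold changes of −0.41 ± 0.06 and −0.60 ± 0.06 that were under the fold threshold. These values count reads over the whole gene, not over the deleted part alone, and most of the transcript was still detected. After LPS the order was turned, with 1005, 969 and 967 in libraries labelled cPLA_2_ WT and 1065, 1032 and 1028 in libraries labelled cPLA_2_ KO. The Y-linked gene *Ddx3y*, which encodes an RNA helicase, also went against the LPS labels. It was at 3.05, 0 and 1.97 normalized counts in nonconfined cPLA_2_ WT and at 0, 1.72 and 2.37 in confined cPLA_2_ WT libraries, and between 874 and 1036 in the nonconfined and confined cPLA_2_ KO libraries. LPS libraries labelled cPLA_2_ WT had 1271, 0 and 662 normalized counts of *Ddx3y*, and those labelled cPLA_2_ KO had 2.12, 1476 and 783. Each LPS group thus held a library with almost no *Ddx3y*, a library with a high level and a library in between. *Xist*, which is transcribed from the inactive X chromosome, was detected in every library, also where *Ddx3y* was high. It was at 27953, 33681 and 30681 normalized counts in nonconfined and 22734, 33482 and 29759 in confined cPLA_2_ WT libraries, and at 12153, 19081 and 14328 in nonconfined and 16980, 24835 and 20600 in confined cPLA_2_ KO libraries. LPS libraries had 26298, 27791 and 27224 under the cPLA_2_ WT label and 30960, 16450 and 21654 under the cPLA_2_ KO label. High *Ddx3y* thus stood beside abundant *Xist*, and the libraries do not divide into some with *Ddx3y* alone and some with *Xist* alone. In nonconfined and confined cells, genotype and the Y-linked difference cannot be told apart. The genotype of the LPS libraries is therefore given only as labelled.

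**Figure D1:**
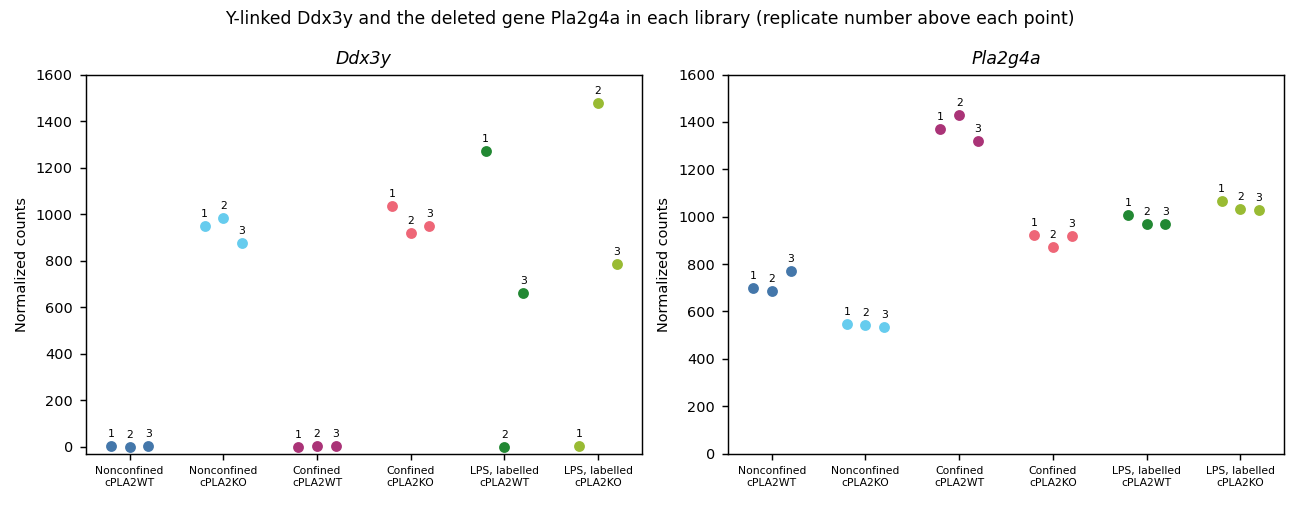
Normalized counts of *Ddx3y* and *Pla2g4a* on the vertical axes in each of the 18 libraries, grouped by condition, with the replicate number at each point. Nonconfined and confined cPLA_2_ KO libraries lie at or above 874 for *Ddx3y*, whereas each LPS group spreads from 2.12 or less to 1271 or more.

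*Nos2* (identifier GSMG0007834) lies on the plus strand of chromosome 11 (GRCm39, 78811613 to 78851052), with 27 exons in the canonical transcript. Nonconfined libraries held almost none of its mRNA, at 24.4, 14.5 and 19.7 normalized counts in cPLA_2_ WT and 21.9, 11.2 and 22.3 in cPLA_2_ KO DCs. After confinement it was at 14692, 13855 and 14383 normalized counts in cPLA_2_ WT DCs and at 77.7, 78.9 and 72.0 in cPLA_2_ KO DCs. With LPS the values were 26511, 42583 and 33828 in libraries labelled cPLA_2_ WT and 42370, 24107 and 32279 in those labelled cPLA_2_ KO. Every confined cPLA_2_ WT library was thus far above every confined cPLA_2_ KO library and below every LPS library, while the nonconfined groups overlapped and the LPS groups overlapped. Group means ± SD (n = 3) were 19.5 ± 4.95 and 18.5 ± 6.33 in nonconfined, 14310 ± 423 and 76.2 ± 3.69 in confined, and 34307 ± 8047 and 32919 ± 9148 normalized counts in LPS-treated cells. The confined mean was 733 times the nonconfined mean in cPLA_2_ WT and 4.12 times in cPLA_2_ KO cells. On the log2 scale *Nos2* rose by 9.48 ± 0.22 (SE) with confinement in cPLA_2_ WT DCs (adjusted p = 5.51e-19) and by 2.05 ± 0.22 in cPLA_2_ KO cells (adjusted p = 1.42e-07). The difference between these responses was −7.43 ± 0.31 (adjusted p = 4.33e-14). In bulk RNA, fewer cells that express a gene and less of its RNA per cell cannot be told apart, which applies to each difference given here.

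*Slc7a2*, which encodes the cationic amino acid transporter CAT2, brings arginine into the cell (identifier GSMG0053272; chromosome 8, plus strand, 41315404 to 41375107, 12 exons). It was at 347, 419 and 432 normalized counts in nonconfined cPLA_2_ WT and at 285, 366 and 375 in nonconfined cPLA_2_ KO DCs. The confined libraries had 9221, 9765 and 9670 in cPLA_2_ WT and 1843, 1852 and 1834 in cPLA_2_ KO cells. LPS libraries had 30433, 26865 and 27739 under the cPLA_2_ WT label and 25521, 26883 and 26292 under the cPLA_2_ KO label. The order of the groups was that of *Nos2*, with no overlap between nonconfined, confined cPLA_2_ KO, confined cPLA_2_ WT and LPS-treated cells. *Slc7a2* rose by 4.58 ± 0.08 on the log2 scale with confinement in cPLA_2_ WT (adjusted p = 9.35e-21) and by 2.44 ± 0.08 in cPLA_2_ KO cells (adjusted p = 2.25e-15), and the responses differed by −2.15 ± 0.12 (adjusted p = 5.22e-12). The confined cPLA_2_ WT mean of *Slc7a2* was 5.18 times the confined cPLA_2_ KO mean, a ratio that was 188 for *Nos2*.

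*Ass1* encodes argininosuccinate synthase, which with argininosuccinate lyase rebuilds arginine from citrulline (identifier GSMG0029145; chromosome 2, plus strand, 31360282 to 31410682, 16 exons). Its mRNA was abundant throughout, with 5758, 5432 and 5728 normalized counts in nonconfined cPLA_2_ WT and 4542, 4563 and 4617 in nonconfined cPLA_2_ KO DCs. Confined DCs had 15988, 15280 and 15240 in cPLA_2_ WT and 9699, 9218 and 10125 in cPLA_2_ KO libraries. The LPS libraries lay between 19075 and 19994. No library of a nonconfined or confined group overlapped with another group. *Ass1* rose by 1.46 ± 0.04 with confinement in cPLA_2_ WT (adjusted p = 8.11e-18) and by 1.08 ± 0.04 in cPLA_2_ KO cells (adjusted p = 6.78e-15). The difference of −0.38 ± 0.06 between the responses had an adjusted p of 2.37e-05 but was under the fold threshold, so it was not called.

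*Asl* encodes argininosuccinate lyase, which completes that step (identifier GSMG0043036; chromosome 5, minus strand, 130040099 to 130053222, 16 exons). Its levels stood at 2244 to 2318 normalized counts in nonconfined cPLA_2_ WT, 2248 to 2474 in nonconfined cPLA_2_ KO, 2220 to 2564 in confined cPLA_2_ WT and 2288 to 2368 in confined cPLA_2_ KO libraries, and these groups overlapped. The LPS libraries, at 2770 to 3077, were above all others. No comparison called *Asl*, and its log2 fold change with LPS was 0.37 ± 0.06 under the cPLA_2_ WT label, or −0.14 with every library scaled to the same total. With confinement in cPLA_2_ WT DCs its log2 fold change was 0.05 ± 0.06 (adjusted p = 0.473), or −0.17 under the same total.

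*Gch1* encodes GTP cyclohydrolase, the first enzyme of tetrahydrobiopterin synthesis (identifier GSMG0017114; chromosome 14, minus strand, 47391352 to 47426871, 6 exons). Nonconfined libraries had 818, 873 and 869.7 normalized counts in cPLA_2_ WT and 1085, 1004 and 958 in cPLA_2_ KO cells. The confined libraries reached 3209, 2951 and 3122 in cPLA_2_ WT and 1439, 1568 and 1479 in cPLA_2_ KO cells, and LPS libraries 5583 to 6084. The groups did not overlap, apart from the LPS pair. *Gch1* rose by 1.86 ± 0.06 with confinement in cPLA_2_ WT DCs (adjusted p = 4.81e-17). In cPLA_2_ KO DCs its log2 fold change of 0.56 ± 0.06 was under the fold threshold (adjusted p = 5.29e-08), and the responses differed by −1.30 ± 0.08 (adjusted p = 2.81e-11).

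*Acod1* encodes aconitate decarboxylase, which makes itaconate (identifier GSMG0016287; chromosome 14, plus strand, 103284411 to 103294009, 5 exons). It was already well detected in nonconfined cells, at 3264, 3088 and 3180 normalized counts in cPLA_2_ WT and 3010, 3153 and 3163 in cPLA_2_ KO cells. Confined libraries held 65492, 62048 and 62621 in cPLA_2_ WT and 9227, 8540 and 9221 in cPLA_2_ KO libraries. With LPS it reached 234657, 198646 and 215268 under the cPLA_2_ WT label and 200903, 236264 and 217394 under the cPLA_2_ KO label. The nonconfined groups overlapped, and confined cPLA_2_ KO, confined cPLA_2_ WT and LPS libraries followed in this order without overlap. The confined mean of 63387 ± 1846 in cPLA_2_ WT DCs was 7.05 times the mean of 8996 ± 395 in cPLA_2_ KO DCs (SD, n = 3). *Acod1* rose by 4.32 ± 0.06 with confinement in cPLA_2_ WT (adjusted p = 4.77e-23) and by 1.53 ± 0.06 in cPLA_2_ KO cells (adjusted p = 1.09e-14), with a difference of −2.79 ± 0.08 (adjusted p = 9.98e-17).

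*Odc1* encodes ornithine decarboxylase, which turns ornithine into the polyamine putrescine (identifier GSMG0010571; chromosome 12, plus strand, 17594874 to 17601503, 12 exons). It was at 5388, 5461 and 5458 normalized counts in nonconfined cPLA_2_ WT and 4966, 4802 and 4896 in nonconfined cPLA_2_ KO DCs. Confined libraries reached 33980, 31481 and 32962 in cPLA_2_ WT and 8775, 8334 and 9206 in cPLA_2_ KO cells. LPS libraries held 5308, 6985 and 5989 under the cPLA_2_ WT label and 6654, 5286 and 6094 under the cPLA_2_ KO label, which overlapped with nonconfined cPLA_2_ WT libraries. *Odc1* was thus highest after confinement, whereas *Nos2*, *Acod1* and *Slc7a2* were highest after LPS. Confined and LPS-treated cells were collected at different times, so stimulus and time cannot be told apart here. It rose by 2.59 ± 0.08 with confinement in cPLA_2_ WT DCs (adjusted p = 4.06e-17). In cPLA_2_ KO DCs the log2 fold change of 0.84 ± 0.08 was under the fold threshold (adjusted p = 1.4e-08), and the responses differed by −1.75 ± 0.11 (adjusted p = 4.31e-11). With LPS its log2 fold change was 0.16 ± 0.08 under the cPLA_2_ WT label (adjusted p = 0.0886), or −0.36 with every library scaled to the same total.

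*Ido1* encodes indoleamine 2,3-dioxygenase (identifier GSMG0054645; chromosome 8, minus strand, 25074149 to 25087025, 10 exons). Its mRNA was scarce, with 46.5, 36.7 and 37.3 normalized counts in nonconfined cPLA_2_ WT and 50.9, 41.0 and 22.3 in nonconfined cPLA_2_ KO DCs. Confined libraries had 158, 178 and 167 in cPLA_2_ WT and 19.4, 40.5 and 23.7 in cPLA_2_ KO DCs. LPS libraries held 70.3, 146 and 139 under the cPLA_2_ WT label and 124, 93.8 and 159 under the cPLA_2_ KO label. Confined cPLA_2_ KO libraries overlapped with the nonconfined ones, and confined cPLA_2_ WT libraries overlapped with LPS libraries labelled cPLA_2_ KO. *Ido1* rose by 2.04 ± 0.32 with confinement in cPLA_2_ WT DCs (adjusted p = 1.08e-05). The log2 fold change in cPLA_2_ KO DCs was −0.43 ± 0.32 (adjusted p = 0.29), and the responses differed by −2.47 ± 0.45 (adjusted p = 0.000238).

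Antisense noncoding genes overlap with exons of *Nos2* (365 bases), *Acod1* (552) and *Asl* (549). The labels and the Methods name 2 library kits, both of which keep the strand, and do not say which libraries were made with which. The strand setting used for counting is not given in the sources used here, and without it reads from these overlaps cannot be assigned to either gene.

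**Figure D2:**
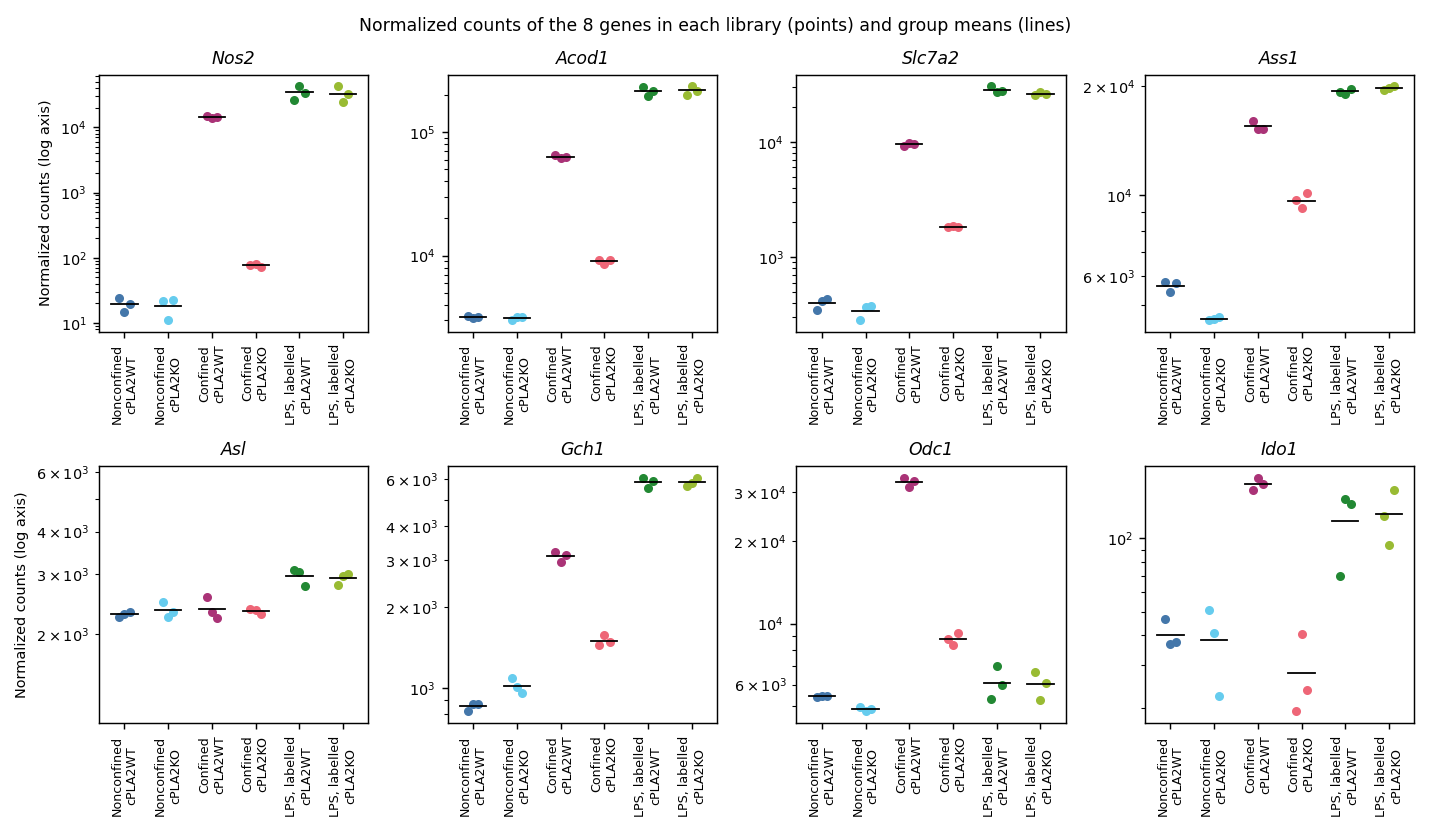
Normalized counts of the 8 genes on log axes, with a point for each library and a line at each group mean, in the 6 conditions. *Nos2*, *Acod1* and *Slc7a2* climb from nonconfined over confined cPLA_2_ KO and confined cPLA_2_ WT to LPS-treated cells, whereas *Odc1* peaks in confined cPLA_2_ WT cells. Confined and LPS-treated cells were collected at different times.

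Per kilobase of canonical transcript, levels of different genes can be set side by side. In nonconfined cPLA_2_ WT DCs, *Ass1* had the highest level of the 8 genes at 3202 normalized counts per kb, followed by *Odc1* at 2350 and *Acod1* at 1211, while *Nos2* stood at 4.65 per kb. After confinement *Acod1* came first at 24166 per kb, before *Odc1* at 14184, *Ass1* at 8803 and *Nos2* at 3414. In confined cPLA_2_ KO DCs the level of *Nos2* was 18.2 per kb. LPS-treated DCs labelled cPLA_2_ WT had 82421 per kb of *Acod1* and 8184 of *Nos2*. The order depends on the length taken: over all annotated exons of a gene, a setting chosen after seeing the data, nonconfined cPLA_2_ WT DCs had 1509 per kb of *Ass1*, 1211 of *Acod1* and 959.8 of *Odc1*, so that *Acod1* came before *Odc1*. On that length confined cPLA_2_ WT DCs had 24166 per kb of *Acod1*, 5793 of *Odc1*, 4148 of *Ass1* and 3224 of *Nos2*.

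The first comparison asked what confinement does to cPLA_2_ WT DCs. *Slc7a2*, *Ass1*, *Nos2*, *Gch1* and *Odc1* rose together with *Acod1* and *Ido1*, and the level that changed most was that of *Nos2*. Except for *Asl*, all of the 8 genes rose, which makes 7 higher and 0 lower. Among all genes tested, 2038 (11.4%) were higher and 1362 (7.62%) lower. The median log2 fold change was 2.32 over the 8 genes and −0.01 over all genes tested. When every library was scaled to the same total, which lowered the median over all genes to −0.23, 1618 genes were higher and 2141 lower, so that 43% of the calls were higher in place of 59.9%, and the 8 genes still gave 7 higher and 0 lower. TMM scaling left the median over all genes at 0.02.

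Lists of related genes were counted in the same way, to be read against the same shares over all genes. Of 10 tested genes of nitric oxide synthesis, arginine transport and nitric oxide sensing other than the genes above, 2 were higher and 1 lower, or 2 and 2 under the same total, with a median log2 fold change of 0.25. *Slc3a2*, the partner chain of several amino acid transporters, rose from 11500 ± 247 to 35661 ± 1304 normalized counts (log2 fold change 1.63 ± 0.07, adjusted p = 2.56e-14). The others called were the arginine transporter gene *Slc7a3* (1.75) and *Gucy1a1* (−3.68), a subunit of the nitric oxide receptor guanylate cyclase, both at mean levels of 34.0 normalized counts or less. Of 5 tetrahydrobiopterin genes, 0 were higher and 0 lower, or 0 and 1 under the same total (median −0.40). Of 9 genes of the urea cycle, ornithine and proline, 1 was higher and 1 lower, or 1 and 2 under the same total (median −0.36). These were *Nags*, which makes the activator of the urea cycle (3.17), and the proline oxidase gene *Prodh* (−1.21). Of 17 polyamine genes, 2 were higher and 1 lower, or 1 and 2 under the same total (median 0.13). *Smox*, which oxidizes spermine, rose by 2.51 ± 0.07 (adjusted p = 3.8e-17) and the antizyme inhibitor gene *Azin2* by 1.07, whereas the spermidine synthase gene *Srm* was lower (−1.42). *Slc7a3*, *Gucy1a1*, *Nags* and *Azin2* were named after their values had been seen.

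Itaconate alkylates KEAP1 and so releases NRF2, and it is tied to ATF3 and to IκBζ, the product of *Nfkbiz*. Of 12 genes of these responses, 9 were higher and 0 lower with confinement in cPLA_2_ WT DCs, with a median log2 fold change of 2.63. *Nfkbiz* rose from 299 ± 27.2 to 16156 ± 159 normalized counts (5.75 ± 0.07, adjusted p = 3.12e-24). Heme oxygenase, encoded by *Hmox1*, rose from 3218 ± 123 to 64814 ± 2384 (4.33 ± 0.12, adjusted p = 1.4e-17). The cystine transporter gene *Slc7a11* and the sulfiredoxin gene *Srxn1*, both NRF2 targets, rose by 3.70 and 3.04 on the log2 scale. Of 21 genes of the TCA cycle around itaconate and of itaconate breakdown, 0 were higher and 1 lower (median −0.20), which was the fumarate hydratase gene *Fh1* (−1.13). Of 17 genes of tryptophan handling other than *Ido1*, 4 were higher and 3 lower, or 2 and 4 under the same total (median 0.15). *Kmo*, which hydroxylates kynurenine, fell from 2041 ± 76.0 to 474 ± 10.4 normalized counts (−2.10 ± 0.07, adjusted p = 1.75e-16). *Kyat3*, a kynurenine aminotransferase gene, was also lower (−1.45), and the amino acid transporter gene *Slc7a8* was higher (1.47), as was *Tiparp*, a target of the aryl hydrocarbon receptor (1.10). The other called genes, named after their values had been seen, were *Ido2* (2.34), *Il4i1* (1.01), which encodes another tryptophan-degrading enzyme, and *Kynu* (−1.02).

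Known regulators were counted too. Of 15 genes for regulators of *Nos2*, *Acod1* and *Ido1*, 9 were higher and 0 lower (median 1.08). The cytokine gene *Il1b* rose from 293 ± 25.4 to 102678 ± 3042 normalized counts (8.45 ± 0.07, adjusted p = 2.08e-26), and the NF-κB subunit genes *Rel*, *Nfkb1* and *Nfkb2* rose by 2.25, 2.10 and 2.00 on the log2 scale. Of 17 genes of alternative activation and its regulators, 6 were higher and 2 lower (median 0.30). Among them *Cebpb*, a transcription factor gene, rose by 2.16, *Hif1a* by 1.71 and *Stat3* by 1.69, and the lower genes, named after their values had been seen, were the lectin genes *Mgl2* (−1.08) and *Clec10a* (−1.39). *Il10* was listed at 0 in every nonconfined cPLA_2_ WT library and at 1493 ± 56.6 normalized counts in confined cPLA_2_ WT cells, so no fold change is given.

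The same comparison was made in cPLA_2_ KO DCs. The transporter gene *Slc7a2*, *Nos2*, *Acod1* and *Ass1* rose, and the levels of *Asl*, *Gch1*, *Odc1* and *Ido1* were not called. The count was 4 higher and 0 lower, beside 1150 (6.43%) higher and 989 (5.53%) lower among all genes tested. The median log2 fold change was 0.96 over the 8 genes and 0.01 over all genes. Of the 12 NRF2 and itaconate-tied genes, 8 were higher and 0 lower (median 2.08). *Hmox1* rose from 3947 ± 149 to 99487 ± 4055 normalized counts (log2 fold change 4.66), and *Nfkbiz* from 289 ± 27.4 to 998 ± 27.6 (1.79). *Slc7a11* and *Srxn1* rose by 3.08 and 2.91. Of the regulators of *Nos2*, *Acod1* and *Ido1*, 3 of 15 were higher and 0 lower, or 3 and 1 under the same total, with *Il1b* at 304 ± 39.7 in nonconfined and 4568 ± 173 normalized counts in confined cells (3.91) and *Rel* at 1.07. The other call, *Ifnb1* (1.88), was named after its values had been seen. Of the 17 alternative activation genes, 3 were higher and 3 lower (median 0.27), with *Cebpb* at 1.46; *Il10* and *Ccl24* were the other higher genes, and *Mgl2*, *Clec10a* and *Ccl22* the lower ones. *Slc3a2* rose by 1.23, and *Kmo* and *Kyat3* were the 2 lower genes of the tryptophan list (−1.87 and −1.39).

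Whether confinement acted differently in the genotypes was tested with the interaction. *Nos2*, *Acod1*, *Slc7a2*, *Gch1*, *Odc1* and *Ido1* responded less in libraries labelled cPLA_2_ KO, whereas no difference was called for *Ass1* and *Asl*. This made 0 higher and 6 lower of the 8 genes. Among all genes tested 198 (1.11%) were higher and 1173 (6.56%) lower. The median difference was −1.95 over the 8 genes and 0.05 over all genes. Under the same total, which put the median over all genes at 0.24, 506 genes were higher and 1002 lower, so that 33.6% of the calls were higher in place of 14.4%. The interaction of *Asl*, −0.06 ± 0.08 (adjusted p = 0.658), became 0.13 under the same total, and it was not called. Of the 15 regulators of *Nos2*, *Acod1* and *Ido1*, 0 were higher and 9 lower (median −1.35), with −4.54 for *Il1b*, −1.18 for *Rel*, −1.62 for *Nfkb1* and −1.80 for *Nfkb2*. Of the 17 alternative activation genes, 0 were higher and 5 lower (median −0.34), namely *Stat3* (−1.42), *Hif1a* (−1.03), *Il4ra* (−1.05), *Ccl22* (−1.56) and *Il10*. The NRF2 and itaconate-tied list had 0 higher and 2 lower of 12 (median −0.12), and these were *Nfkbiz* (−3.97, adjusted p = 3.33e-18) and *Atf3* (−1.05). For *Hmox1* the difference was 0.32 (adjusted p = 0.188). Of 17 polyamine genes 0 were higher and 2 lower, *Smox* (−1.64, adjusted p = 6.52e-11) and *Azin2* (−1.83). Of 17 tryptophan genes 0 were higher and 3 lower, *Ido2* (−1.86), *Il4i1* (−1.32) and *Cyp1b1* (−1.12), the last named after its values had been seen. The lists of nitric oxide, tetrahydrobiopterin, urea cycle and TCA cycle genes had 0 higher and 0 lower. Without the 6 LPS libraries, a setting chosen after seeing the data, confinement gave 7 called genes of the 8 in cPLA_2_ WT and 4 in cPLA_2_ KO cells, and the interaction 6.

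**Figure D3:**
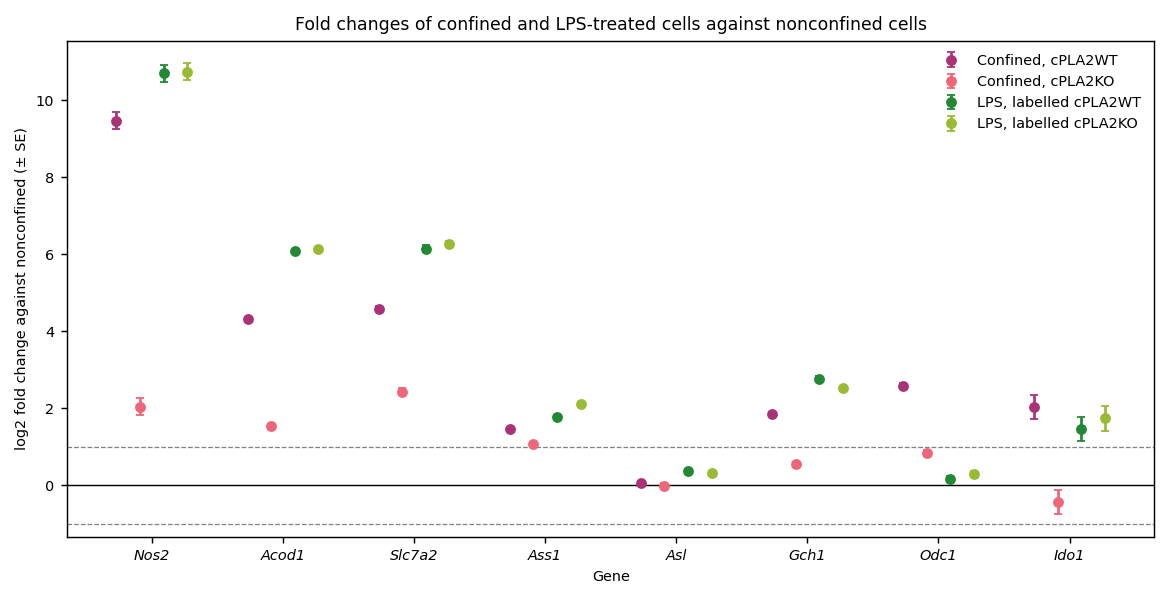
Log2 fold changes of the 8 genes with standard errors as bars, by comparison, with dashed lines at the fold threshold of 1 in each direction. Confinement moved *Nos2* by 9.48 in cPLA_2_ WT and 2.05 in cPLA_2_ KO cells, while *Asl* stays inside the dashed lines.

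Before confinement none of the 8 genes was called between the genotypes. With limma this is 0 higher and 0 lower of the 8 genes, beside 152 (0.850%) higher and 54 (0.302%) lower among all genes tested. At an unadjusted p under 0.05, 3 of the 8 genes and 4005 of all genes passed, and edgeR and DESeq2 each called 0 of the 8. Under the fold threshold, but with an adjusted p under 0.05, stood *Ass1* at −0.30 ± 0.04 (adjusted p = 6.27e-05) and *Gch1* at 0.25 ± 0.06 (adjusted p = 0.00819). *Slc7a2* (−0.23), *Nos2* (−0.11) and *Acod1* (−0.03) had adjusted p-values of 0.105, 0.844 and 0.821. The median was −0.13 over the 8 genes and −0.00 over all genes, and each pathway and regulator list had 0 calls.

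Among confined cells the genotypes were far apart. Confined cPLA_2_ KO DCs had lower *Nos2*, *Acod1*, *Slc7a2*, *Gch1*, *Odc1* and *Ido1* than confined cPLA_2_ WT DCs. The count was 0 higher and 6 lower of the 8 genes, beside 498 (2.79%) higher and 1307 (7.31%) lower among all genes tested. *Nos2* (adjusted p = 3.88e-17), *Acod1* (−2.82, adjusted p = 8.08e-20) and *Slc7a2* (−2.37 ± 0.08, adjusted p = 1.08e-15) were lower. *Ido1* was lower too (−2.61 ± 0.32, adjusted p = 8.15e-07), as was *Odc1* (−1.90 ± 0.08, adjusted p = 1.3e-14). *Gch1* (−1.05 ± 0.06) was called here and lost the call when libraries had the same total, at −0.89. The median was −2.14 over the 8 genes. Under that scaling 780 genes were higher and 1111 lower, so that 41.2% of the calls were higher in place of 27.6%, and the median over all genes moved from 0.04 to 0.19. *Asl* had a log2 fold change of −0.02, or 0.14 under the same total, and was not called. *Ass1*, at −0.68 ± 0.04 (adjusted p = 7.13e-12), was under the fold threshold. The regulators of *Nos2*, *Acod1* and *Ido1* had 0 higher and 9 lower of 15. The alternative activation list had 0 higher and 5 lower of 17, or 2 and 5 under the same total, and the lower genes were *Stat3*, *Hif1a*, *Il4ra*, *Il10* and *Ccl22*.

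Markers of other cell types moved with genotype, confinement and LPS, and their part in the results was not tested. In the Methods DCs are separated from other cultured cells by adhesion, and over 90% of the cells recovered are given as positive for CD11c. The Methods describe that step as keeping cells of intermediate adhesion and leaving out loose granulocytes and firmly attached macrophages. Markers of these cell types were still detected. Their means over the 18 libraries were 132143 normalized counts for *S100a9*, 18479 for *Prg2* and 8285 for *Adgre1*. Among all genes tested, 11.4% were higher and 7.62% lower with confinement in cPLA_2_ WT DCs, and 6.43% and 5.53% in cPLA_2_ KO DCs. In cPLA_2_ KO against cPLA_2_ WT DCs, 0.850% were higher and 0.302% lower in nonconfined cells, and 2.79% and 7.31% in confined cells. The marker counts that follow are to be read beside these shares, and a count near them says nothing about a list. Of 9 neutrophil markers, led by *S100a9*, 5 were lower with confinement in cPLA_2_ WT and 1 in cPLA_2_ KO cells, while 2 were higher in nonconfined and 7 in confined cPLA_2_ KO than in cPLA_2_ WT DCs. Their summed normalized counts were 238799, 243888 and 242238 in nonconfined cPLA_2_ WT, 369633, 332300 and 357470 in nonconfined cPLA_2_ KO, 154033, 146822 and 144607 in confined cPLA_2_ WT, and 333095, 346079 and 330068 in confined cPLA_2_ KO libraries. In LPS libraries they were 308839, 290094 and 292202 under the cPLA_2_ WT label and 276728, 312383 and 294401 under the cPLA_2_ KO label. Neutrophil transcripts were thus lowest in confined cPLA_2_ WT cells. Against LPS libraries of that label, *S100a9* (−1.01), *Camp* (−1.29), *Ly6g* (−1.54), *Elane* (−2.08) and *Mpo* (−1.98) were lower in them, beside 7.51% of all genes tested. Of 6 eosinophil markers, led by *Prg2*, 4 were lower and 1 higher with confinement in cPLA_2_ WT DCs, and 4 were lower in cPLA_2_ KO DCs. In cPLA_2_ KO against cPLA_2_ WT DCs 5 were higher in nonconfined cells, and 4 were higher and 1 lower in confined cells. Their sums were 31132, 30919 and 30845 in nonconfined cPLA_2_ WT, 75852, 70606 and 72713 in nonconfined cPLA_2_ KO, 8934, 8379 and 8280 in confined cPLA_2_ WT, and 21660, 21242 and 22078 in confined cPLA_2_ KO libraries. LPS libraries labelled cPLA_2_ WT had sums of 43969, 25589 and 35214 and those labelled cPLA_2_ KO 25523, 43976 and 35822. The summed eosinophil transcripts were thus higher in nonconfined cPLA_2_ KO than in nonconfined cPLA_2_ WT cells. *Siglecf*, of the same list, went the other way, at 943 ± 42.8 against 1402 ± 49.2 normalized counts. Its log2 fold change of −0.57 (adjusted p = 0.00108) was under the fold threshold, as was that of −0.39 between confined genotypes (adjusted p = 0.00372). With LPS under the cPLA_2_ KO label, *Epx* (−1.19), *Prg2* (−1.05), *Ear1* (−1.32), *Ear6* (−1.15) and *Ccr3* (−1.13) were lower, beside 12.9% of all genes tested. Under the cPLA_2_ WT label no eosinophil marker was called. Against LPS-treated cells labelled cPLA_2_ WT, confined cells had lower *Epx* (−2.72), *Prg2* (−2.28), *Ear1* (−2.44) and *Ear6* (−1.35), beside 7.51% of all genes tested.

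Of 7 mast cell and basophil markers, led by *Cpa3*, 4 were lower with confinement in each genotype. Of all genes tested, 7.62% were lower in the cPLA_2_ WT comparison and 5.53% in the cPLA_2_ KO one. *Kit*, of the same list, went the other way, under the fold threshold. Its log2 fold changes were 0.37 in cPLA_2_ WT (adjusted p = 0.000592) and 0.80 in cPLA_2_ KO cells (adjusted p = 6.42e-08). It was named after its values had been seen. In confined cells 3 of the 7 markers were higher under cPLA_2_ KO than under cPLA_2_ WT, beside 2.79% of all genes tested. The 7 markers summed to 6901, 7151 and 6988 normalized counts in nonconfined cPLA_2_ WT and 10509, 10224 and 10039 in nonconfined cPLA_2_ KO libraries. Their sums were 3577, 3446 and 3523 in confined cPLA_2_ WT and 5562, 5449 and 5627 in confined cPLA_2_ KO libraries. LPS libraries had sums from 6475 to 7113. Confined libraries labelled cPLA_2_ WT had lower *Cpa3* (−1.15), *Mcpt8* (−1.77), *Ms4a2* (−1.86) and *Fcer1a* (−1.80) than LPS libraries of that label, beside 7.51% of all genes tested. Of 10 DC markers, led by *Cd74*, 4 were lower with confinement in cPLA_2_ WT and 5 in cPLA_2_ KO cells. These counts, and the macrophage counts below, are to be read beside the shares over all genes given above. The DC sums ran from 410906 to 436285 in nonconfined cPLA_2_ WT, 487794 to 516650 in nonconfined cPLA_2_ KO, 352262 to 380054 in confined cPLA_2_ WT, 344556 to 358561 in confined cPLA_2_ KO and 509680 to 602932 in LPS libraries. Most of each sum came from the MHC class II genes *Cd74*, *H2-Aa* and *H2-Ab1*, at means of 240559, 79603 and 83965 in nonconfined cPLA_2_ WT cells, which other antigen-presenting cells also express. Of the other DC markers, *Itgax*, which encodes CD11c, had group means from 4316 to 7120 normalized counts, and the transcription factor gene *Zbtb46* from 506 to 1304. *Cd209a* went the other way from the sums after LPS, with means of 154 and 179.6 in nonconfined, 25.4 and 34.9 in confined, and 12.1 and 8.35 in LPS-treated cells. These genes were picked out of the list after their values had been seen. Of 9 macrophage markers, led by *Adgre1*, 7 were tested, and *Cd163* and *Timd4* stayed under 10 normalized counts in each library. With confinement 1 macrophage marker was lower in cPLA_2_ WT and 3 were in cPLA_2_ KO cells, or 2 and 3 under the same total. In confined cPLA_2_ KO against confined cPLA_2_ WT DCs, 1 macrophage marker was lower, *Fcgr1* (−1.21 ± 0.08, adjusted p = 2.41e-11), which went the same way as the 6 called genes of the 8. The macrophage sums ran from 11533 in a confined cPLA_2_ KO library to 23143 in an LPS library. Of the DC markers, *Batf3* was lower in confined cPLA_2_ KO than in confined cPLA_2_ WT DCs (−1.15), a call that was lost under the same total. In the interaction, 1.11% of all genes tested were higher and 6.56% lower. The neutrophil markers *Elane* (2.02) and *Mpo* (1.49) were higher there. The eosinophil marker *Ccr3* (−3.06), the DC marker *Batf3* (−1.22) and the macrophage marker *Fcgr1* (−1.17, adjusted p = 2.34e-08) were lower. Under the same total 3 neutrophil markers were higher and no macrophage marker was called, beside 506 genes higher and 1002 lower among all genes. The markers named between genotypes, in the interaction and in the LPS comparisons were picked after their values had been seen. No listed marker was at 0 in all libraries.

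LPS was the microbial reference. A day after the pulse, the mean levels of *Nos2*, *Slc7a2*, *Ass1*, *Gch1* and *Acod1* were at their highest, and *Odc1* and *Asl* were not called. In DCs labelled cPLA_2_ WT, LPS gave 6 higher and 0 lower of the 8 genes, beside 2688 (15.0%) higher and 2201 (12.3%) lower among all genes tested. *Nos2* rose by 10.71 ± 0.22 (adjusted p = 2.85e-20), to 1758 times its nonconfined mean, *Slc7a2* by 6.15 ± 0.08 (adjusted p = 3.35e-23) and *Gch1* by 2.78 ± 0.06 (adjusted p = 2.21e-20). *Acod1* reached 68.0 times its nonconfined mean (adjusted p = 8.54e-26). *Ass1* rose by 1.78 ± 0.04 (adjusted p = 1.16e-19). *Ido1* rose by 1.47 ± 0.32 (adjusted p = 0.000365), a call that was lost at 0.97 under the same total. The median was 2.28 over the 8 genes and 0.03 over all genes. Under the same total, which moved the median over all genes to −0.47, 1723 genes were higher and 4401 lower, so that 28.1% of the calls were higher in place of 55%.

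In DCs labelled cPLA_2_ KO, LPS also gave 6 higher and 0 lower, beside 2686 (15.0%) higher and 2300 (12.9%) lower among all genes tested. *Nos2* rose by 10.75, *Acod1* by 6.13, *Slc7a2* by 6.27, *Gch1* by 2.53, *Ass1* by 2.11 and *Ido1* by 1.74 on the log2 scale. *Odc1* had a log2 fold change of 0.29 (adjusted p = 0.00252), or −0.19 under the same total, and *Asl* 0.31, or −0.17. The median was 2.32 over the 8 genes and 0.02 over all genes. With the same total the median over all genes was −0.44, and 1711 genes were higher and 4346 lower, so that 28.2% of the calls were higher in place of 53.9%. Both LPS comparisons used nonconfined libraries that also served in the confinement comparisons.

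Lists of related genes were counted for LPS under the cPLA_2_ WT label, where 15.0% of all genes tested were higher and 12.3% lower, and a count near these shares says nothing about a list. Of 15 regulators of *Nos2*, *Acod1* and *Ido1*, 12 were higher and 0 lower (median 1.69), with *Il1b* at 9.71 and *Tnf*, an NF-κB-driven cytokine gene, at 5.75. Of the 12 NRF2 and itaconate-tied genes, 9 were higher and 1 lower (median 2.63), with *Nfkbiz* at 5.98 and *Slc7a11* at 4.24; the lower gene, *Tfeb* (−1.30), was named after its values had been seen. Of 17 alternative activation genes, 7 were higher and 3 lower (median 0.85), among them the chemokine gene *Ccl22* (3.73), and the lower genes were *Klf4*, *Mgl2* and *Clec10a*. In the TCA list 0 were higher and 2 lower of 21 (median −0.22), the isocitrate dehydrogenase gene *Idh2* (−1.29) and *Fh1* (−1.33). Proline metabolism gave *Aldh18a1* (−1.28), *Aldh4a1* (−1.29) and *Prodh* (−1.03) as the 3 lower genes of 9, with *Nags* as the 1 higher (1.72). Of 17 polyamine genes, 2 were higher and 4 lower (median 0.08), with *Smox* (1.44) and *Azin2* higher and *Srm* (−1.75), *Sat2*, *Paox* and *Mtap* lower. Of 17 tryptophan genes, 3 were higher and 4 lower (median −0.06), with *Il4i1* (2.69), *Slc7a8* (2.11) and *Ido2* higher and *Kmo* (−1.46), *Qprt*, *Cyp1a1* and *Cyp1b1* lower. Of 5 tetrahydrobiopterin genes 0 were higher and 0 lower, or 0 and 2 under the same total. *Slc3a2* (2.02) and *Slc7a3* (1.03) were the 2 higher of 10 nitric oxide and arginine transport genes, of which 1 was higher and 2 lower under the same total. *Klf4*, *Sat2*, *Paox*, *Mtap*, *Qprt* and *Cyp1a1* were named after their values had been seen. Under the same total the TCA list had 0 higher and 8 lower and the urea cycle list 1 higher and 6 lower.

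Between the LPS groups no gene was called. The 8 genes had log2 fold changes from −0.11 for *Slc7a2* to 0.13 for *Ido1*, each with an adjusted p of 1. The count was 0 higher and 0 lower of the 8 genes, and 0 (0%) higher and 0 (0%) lower of all genes tested with limma. At an unadjusted p under 0.05, 890 genes and 0 of the 8 passed, and edgeR and DESeq2 called 0 genes. Since the genotype labels of these libraries are in doubt, the comparison describes the labels only. With the 6 LPS libraries taken as 1 group, LPS gave 6 called genes of the 8 against either nonconfined group, beside 2762 higher and 2304 lower among all genes against cPLA_2_ WT and 2818 higher and 2382 lower against cPLA_2_ KO cells.

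Confined cells were then set against LPS-treated cells. The labels give collection at 4 h for confined cells, whereas LPS-treated cells were collected the next day. Under either label, stimulus and time of collection cannot be told apart in this comparison. In cells labelled cPLA_2_ WT, *Nos2*, *Slc7a2* and *Acod1* did not reach their LPS levels after confinement, whereas *Odc1* exceeded its LPS level. *Nos2* (−1.24, adjusted p = 8.18e-05), *Acod1* (−1.77, adjusted p = 6.48e-16) and *Slc7a2* (−1.57, adjusted p = 1.8e-12) were lower in confined cells, and *Odc1* was higher (2.44, adjusted p = 3.49e-16). This gave 1 higher and 3 lower of the 8 genes, beside 1130 (6.32%) higher and 1342 (7.51%) lower among all genes tested. The LPS mean was 2.40 times the confined mean for *Nos2*, 3.41 times for *Acod1* and 2.97 times for *Slc7a2*. *Gch1*, at −0.92 (adjusted p = 1.46e-11), and *Ido1*, at 0.57 (adjusted p = 0.146), were not called. *Nos2* lost its call under the same total (−0.95), where 1907 genes were higher and 895 lower, so that 68.1% of the calls were higher in place of 45.7%. The median was −0.62 over the 8 genes and −0.02 over all genes, or 0.26 over all genes under the same total.

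In cells labelled cPLA_2_ KO, *Nos2*, *Slc7a2*, *Ass1*, *Gch1*, *Acod1* and *Ido1* were lower after confinement than after LPS, and *Odc1* and *Asl* were not called. Confined cPLA_2_ KO cells had lower *Nos2* (−8.70, adjusted p = 1.08e-18), *Acod1* (−4.60, adjusted p = 6.76e-24), *Slc7a2* (−3.83, adjusted p = 9.07e-20), *Gch1* (−1.97, adjusted p = 9.04e-18), *Ido1* (−2.17, adjusted p = 4.66e-06) and *Ass1* (−1.03, adjusted p = 1.93e-15). The log2 fold change was 0.55 for *Odc1* (adjusted p = 3.01e-06) and −0.32 for *Asl* (adjusted p = 5.55e-05), which became 0.13 under the same total. The count was 0 higher and 6 lower of the 8 genes, beside 1863 (10.4%) higher and 2246 (12.6%) lower among all genes tested. *Ass1* was at the edge of the call and lost it under the same total (−0.59), under TMM scaling (−0.99) and without confined cPLA_2_ KO replicate 2 (−1.0). Under the same total, which put the median over all genes at 0.46, 3849 genes were higher and 1530 lower, so that 71.6% of the calls were higher in place of 45.3%. The median was −2.07 over the 8 genes and 0.02 over all genes. The confined libraries of both genotypes were also used in the comparisons above.

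As a description of likeness, the Pearson correlation of log2(normalized count + 1) over the 18 libraries was computed with 10554 genes that have a symbol and a mean of at least 100 normalized counts. For *Nos2* the most similar patterns were those of *Dusp2* (0.998), *Nfkb1* (0.998) and *Sp140* (0.997), and for *Acod1* those of *Nub1*, *Skil* and *St3gal1* (each 0.998). The patterns most similar to *Ido1* were those of *Fgf23* (0.952), *Stat4* (0.95) and *Plat* (0.947). The libraries form 6 groups of 3 and are not 18 independent points.

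The 250 bases before the start are shown for *Acod1*, *Ass1*, *Gch1* and *Odc1*, the 4 of the 8 genes that were matched in RefSeq on GRCm38.p6. All of these rose with confinement in cPLA_2_ WT DCs, as did *Nos2*, *Slc7a2* and *Ido1*, which like *Asl* were not matched. The windows are chr14:103046762-103047011 on the plus strand for *Acod1*, chr2:31470020-31470269 on the plus strand for *Ass1*, chr14:47189414-47189663 on the minus strand for *Gch1* and chr12:17544623-17544872 on the plus strand for *Odc1*. Capitals mark matches, on either strand, to a TATA box (TATAAA), a kappaB consensus, an ISRE core (GAAANNGAA), a GAS element (TTCNNNGAA), an antioxidant response element core (TGANNNNGC) or an E-box (CACGTG).
Acod1: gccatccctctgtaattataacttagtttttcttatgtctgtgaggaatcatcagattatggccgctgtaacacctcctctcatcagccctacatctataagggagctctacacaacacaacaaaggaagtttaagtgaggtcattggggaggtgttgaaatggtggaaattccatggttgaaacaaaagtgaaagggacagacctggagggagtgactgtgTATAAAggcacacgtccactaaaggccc
Ass1: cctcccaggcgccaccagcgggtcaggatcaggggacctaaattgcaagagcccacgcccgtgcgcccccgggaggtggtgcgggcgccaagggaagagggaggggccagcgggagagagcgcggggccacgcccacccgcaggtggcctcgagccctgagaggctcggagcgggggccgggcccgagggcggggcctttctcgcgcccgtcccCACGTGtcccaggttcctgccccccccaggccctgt
Gch1: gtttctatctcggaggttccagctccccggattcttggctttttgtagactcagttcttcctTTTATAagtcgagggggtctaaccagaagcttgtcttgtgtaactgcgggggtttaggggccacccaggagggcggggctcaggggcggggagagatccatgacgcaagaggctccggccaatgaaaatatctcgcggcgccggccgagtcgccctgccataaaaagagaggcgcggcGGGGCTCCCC
Odc1: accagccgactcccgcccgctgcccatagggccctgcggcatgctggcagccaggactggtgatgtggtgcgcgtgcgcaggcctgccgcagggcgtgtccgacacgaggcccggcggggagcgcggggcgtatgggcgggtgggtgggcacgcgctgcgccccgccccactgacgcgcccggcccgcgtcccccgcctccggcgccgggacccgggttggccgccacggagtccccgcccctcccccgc

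The *Acod1* window holds a TATA box 28 bases before the start and is 44.4% G and C. The *Gch1* window holds a kappaB match 10 bases before the start and a TATA box on the reverse strand 188 bases before it, with 59.2% G and C. *Ass1* has an E-box 36 bases before the start, and its window is 75.6% G and C. The *Odc1* window, at 80% G and C, holds none of these letters. Among 32851 promoter windows of the same length, 12.4% hold the TATA box, 3.9% the kappaB consensus, 7.13% the ISRE core, 7.02% the GAS element, 35.2% the antioxidant response element core and 6.02% the E-box, and the median G and C content is 52.4%. A match describes letters and not a bound site.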

How the data were processed

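The deposited table holds signal values, which the authors made by dividing gene counts by DESeq2 size factors. The submitters' processing notes name STAR 2.7.5a, featureCounts 1.5.0, DESeq2, R 3.5.3 and mm39 (GRCm39), and the Methods name the Mouse FAST DB annotation. Groups and replicate numbers came from the labels of the 18 libraries.

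The test was limma 3.58.1 (R 4.3.3) on log2(normalized count + 1), in a fit with 6 group means and a trend. Benjamini-Hochberg adjustment covered all genes tested in a comparison. Multiplying by each library's factor turned 100% of the values into whole reads, within a tolerance of 0.01. On these reads, edgeR 4.0.16 called 2063 genes higher and 1342 lower and DESeq2 1.42.0 called 2119 higher and 1375 lower with confinement in cPLA_2_ WT DCs. No pair of libraries differed by less than sampling noise, and none were merged. The code was tested on simulated data. Python 3.11.15, pandas 2.3.3, scipy 1.17.1 and matplotlib 3.10.9 were also used.

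The genes named are the 8 genes, the most changed called genes of each pathway list whose mean reached 100 normalized counts (up to 4 for confinement in cPLA_2_ WT DCs and 2 for LPS), those with the most similar patterns, label checks and the most abundant gene of each marker list. The other 2 of the 10 genes chosen, and some listed genes, are not reported here. The genes and the lists were chosen with earlier results of these data known. Alternatives were pseudocounts of 0.5 and 5, TMM scaling or an equal total for all libraries, a filter at 100 normalized counts or none, edgeR, DESeq2, only the groups compared, a replicate block, the LPS libraries as 1 group, the adjusted p alone, the Methods' thresholds (a p of 0.05, read here as unadjusted, with a fold change of 1.5, whereas a figure legend of the study gives a false discovery rate under 0.05 and a log2 fold change beyond 1, as used here) and leaving out single libraries. The fit without the 6 LPS libraries was chosen after seeing the data.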

Additional observations from a re-analysis of the deposited data

Results flagged for a closer look

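The response to confinement differed between genotypes by the interaction term for 6 of the 8 genes, all lower, beside 198 (1.11%) higher and 1173 (6.56%) lower of 17875 genes tested. The difference in log2 fold change, cPLA_2_ KO minus cPLA_2_ WT, was −7.43 for *Nos2*, −2.79 for *Acod1*, −2.15 for *Slc7a2*, −1.30 for *Gch1*, −1.75 for *Odc1* and −2.47 for *Ido1*.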

How the results depend on the processing

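Of 1560 values of the 8 genes under the alternatives, 1505 kept their direction and their side of the threshold, 6 lost the call, 17 gained it, 32 changed sign with no call and 0 were called in the other direction. The number of the 8 genes called moved by over 1.5 times with the adjusted p alone, to 2 in nonconfined cPLA_2_ KO against cPLA_2_ WT DCs (1 higher, 1 lower) and to 7 in confined against LPS-treated cells labelled cPLA_2_ WT (1 higher, 6 lower), because that setting drops the fold threshold. With a library left out, the count ranged from 7 to 7 with confinement in cPLA_2_ WT, 4 to 4 in cPLA_2_ KO, 6 to 6 for the interaction, 0 to 0 and 6 to 6 between nonconfined and between confined genotypes, 6 to 6 and 6 to 6 for LPS under the cPLA_2_ WT and cPLA_2_ KO labels, 0 to 0 between the LPS groups, and 4 to 4 and 5 to 6 for confinement against LPS. With the replicate block the counts, in this order, were 7, 4, 6, 0, 6, 6, 6, 0, 4 and 6, as without it. The deviations of same-numbered libraries correlated at 0.34, 0.21 and 0.04 between confined genotypes, the highest of the comparisons, and at 0.18, 0.11 and −0.06 for confinement in cPLA_2_ WT DCs, and the numbers were not taken as pairs. With the 6 LPS libraries as 1 group, LPS gave 6 under each label and confinement against LPS 4 and 6. Without the 6 LPS libraries, chosen after seeing the data, the first 5 counts were 7, 4, 6, 0 and 6. Among all genes, counts moved by over 1.5 times with a filter of 100 normalized counts (1248 higher and 751 lower with confinement in cPLA_2_ WT DCs, 531 and 556 in cPLA_2_ KO DCs, 90 higher for the interaction, 75 and 21 between nonconfined genotypes, 198 and 863 between confined genotypes, 1376 and 1385 lower with LPS under each label, 536 and 816, and 922 higher for confinement against LPS), which tests fewer genes. They also moved with the thresholds of the Methods (3269 and 2898, 2254 and 1973, 1019 and 1937, 601 and 399, 1366 and 2109, 4080 and 3619, 4082 and 3771, 145 and 171, 2295 and 2393, and 3373 higher, in the order of the counts above) and with the adjusted p alone (5038 and 5075, 4081 and 4190, 1823 and 2796, 854 and 734, 3356 and 3682, 5965 and 5258, 5972 and 5384, 3864 and 4870, and 5026 and 5475, without the LPS pair), which call smaller changes. Between nonconfined genotypes, leaving out cPLA_2_ KO replicate 1 gave 90 higher and 35 lower, leaving out cPLA_2_ WT replicate 2 or 3 or cPLA_2_ KO replicate 2 gave 20, 31 or 95 lower, and a pseudocount of 5 gave 31 lower. Between the LPS groups 1 gene was called without a filter, and 1 without replicate 2 of either label. Depth limits *Nos2* in nonconfined cells most, with 69 reads in cPLA_2_ WT and 63 in cPLA_2_ KO libraries in sum. The cause of calls that moved with scaling was not tested.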

Other observations

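Within the LPS libraries, the extremes of *Nos2*, *Odc1* and *Acod1* fell in the libraries with the extremes of *Ddx3y*. The libraries with almost no *Ddx3y*, replicate 2 labelled cPLA_2_ WT and replicate 1 labelled cPLA_2_ KO, had 42583 and 42370 normalized counts of *Nos2*, 6985 and 6654 of *Odc1* and 198646 and 200903 of *Acod1*. Those with the most *Ddx3y*, replicate 1 labelled cPLA_2_ WT and replicate 2 labelled cPLA_2_ KO, had 26511 and 24107 of *Nos2*, 5308 and 5286 of *Odc1* and 234657 and 236264 of *Acod1*, so that *Nos2* and *Odc1* were low and *Acod1* high where *Ddx3y* was high. Replicate 3 of each label lay between them for these genes. Over all genes, LPS replicate 1 labelled cPLA_2_ KO was nearest to replicate 2 labelled cPLA_2_ WT, with a mean squared difference of 5.73 times the counting variance. The other 2 were not nearest to each other, at 15.4, since replicate 1 labelled cPLA_2_ WT was nearest to replicate 3 of its label (15.2) and replicate 2 labelled cPLA_2_ KO to replicate 3 of its label (11.3). Replicate 3 of each label was nearest to replicate 3 of the other label, at 6.99. The other 5 genes did not divide in this way at both ends: the 2 lowest values of *Gch1* (5583 and 5643) were in the libraries with almost no *Ddx3y* and those of *Ido1* (70.3 and 93.8) in those with the most, while neither end of *Slc7a2*, *Ass1* and *Asl* matched these pairs. The summed eosinophil markers were at 25589 and 25523 in the libraries with almost no *Ddx3y* and 43969 and 43976 in those with the most. The sums of other lists divided the same way, at 509680 and 512825 against 602932 and 589759 for DC markers, 18202 and 18171 against 23143 and 22403 for macrophage markers and 290094 and 276728 against 308839 and 312383 for neutrophil markers. Mast cell and basophil markers had 6637 and 6475 against 6907 and 7083, with 7113 in replicate 3 labelled cPLA_2_ KO. These are values of single libraries, set side by side after they had been seen and not tested.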
